A study of Mus musculus with 6 samples.

Results

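Fc receptors bind the constant part of antibodies and let a phagocyte sense antibody-coated targets. In the mouse the activating receptors for IgG (Fcgr1, Fcgr3 and Fcgr4) signal through the common gamma chain Fcer1g, whose ITAM motif recruits the kinase Syk, while Fcgr2b carries an inhibitory ITIM motif that recruits the phosphatase Inpp5d (SHIP1). Fcgrt encodes the heavy chain of FcRn, which with B2m salvages IgG from endosomes, and Fcrls encodes a scavenger receptor with Fc-receptor-like domains, known as a marker of mouse microglia. In the gut these receptors take part in the response of macrophages to IgG immune complexes formed with luminal bacteria. The 7 genes were selected by symbol from the 17067 genes of the tables, and all 7 passed the filter on low levels that left 10005 genes for testing.

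The 3 Gsdmd-/- and 3 WT samples were macrophages sorted by flow cytometry from colon as CD45+CD11b+F4/80+ cells. Both groups were C57BL/6 mice aged 10 weeks, and both had received dextran sulfate sodium (DSS), a polymer that injures the colonic epithelium and causes colitis, so there was no group without colitis. Gsdmd encodes gasdermin D, which forms the membrane pore of pyroptosis, and the comparison asked how the macrophage transcriptome differed without it. The labels give neither the part of the gene that was deleted, nor a cell type to which the deletion was limited, nor whether mice were pooled.

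The values, whose unit the tables do not state, were read as FPKM, fragments scaled by transcript length and library size. Depth estimated from the step size of low values was 20.5 M to 20.6 M fragments in Gsdmd-/- samples and at most 20.4 M in WT samples. Gsdmd itself was 28.5, 29.0 and 29.7 FPKM in Gsdmd-/- samples, against 97.7, 99.4 and 97.4 FPKM in WT samples (log2 change -1.72, adjusted p = 1.12e-11). Which part of the gene the remaining Gsdmd reads came from was not analysed here. All 13 macrophage markers were above the filter. Of these, 5 rose (C1qa, C1qb, C1qc, Cd68 and Lyz2) and 6 fell in Gsdmd-/- macrophages, beside 40.6% and 36.9% of all tested genes. Once a trend on the length and GC content of the longest transcript was removed, 0 rose and 11 fell, beside 29% and 30.2%. With the median transcript in its place 1 rose and 6 fell, beside 34.6% and 30.9%. Under quantile normalization 1 rose and 7 fell, beside 41% and 36.2%. The markers used for the sort were among those that fell: Itgam (CD11b) averaged 91.3 FPKM in Gsdmd-/- and 176.5 FPKM in WT samples, Adgre1 (F4/80) 215.7 and 290.8 FPKM, and Ptprc (CD45) 57.9 and 92.4 FPKM. Changes were widespread, with 77.5% of tested genes past an adjusted p of 0.05 (limma, Benjamini-Hochberg over all tested genes), and they followed transcript length. The median log2 change was 0.53 in the 988 genes with the shortest protein-coding transcripts and -0.48 in the 986 with the longest.

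Of the 7 Fc receptor genes, 6 rose and 1 fell in Gsdmd-/- macrophages, whereas 4 rose and 0 fell once the trend on transcript length and GC content was removed. Over all tested genes 40.6% rose and 36.9% fell. In none of the 7 did the groups overlap, as in 79.4% of tested genes: 6 had every Gsdmd-/- sample above every WT sample, as did 41.2% of tested genes, and 1 had every Gsdmd-/- sample below, as did 38.3%. The median log2 change was 0.39 over the 7 genes and 0.03 over all tested genes. The 3 activating receptors, the gamma chain, Fcgrt and Fcrls were higher, and the inhibitory receptor Fcgr2b was lower, a direction that turned round with that trend removed. Because the samples are bulk RNA, fewer cells of a type and less RNA per cell cannot be told apart.

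**Figure D1:**
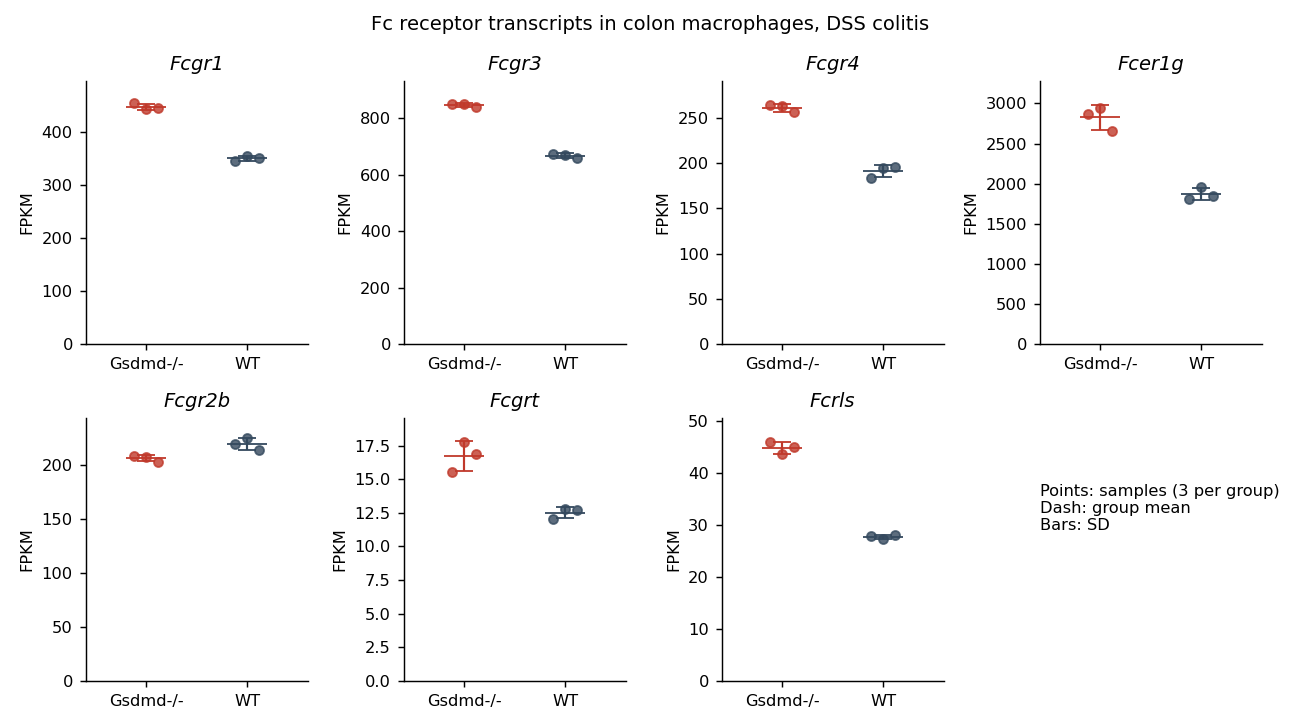
FPKM of each Fc receptor gene in the 3 Gsdmd-/- samples (left, red) and the 3 WT samples (right, blue); points are samples, dashes group means and bars SD, and each vertical axis starts at 0. The groups separate in every panel; Fcgr2b is the panel in which Gsdmd-/- samples lie below WT samples, by a gap that is small beside its level and that turned round once the length and GC trend was removed.

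Fcgr1 (gene 14129, chr3:96282909-96293969, minus strand, GRCm38.p6) encodes the high-affinity receptor for IgG. It stood at 455, 444 and 446 FPKM in Gsdmd-/- samples, against 346, 355 and 352 FPKM in WT samples. All Gsdmd-/- samples were higher, and samples of a group lay close together. The means were 448 ± 5.64 FPKM in Gsdmd-/- and 351 ± 4.78 FPKM in WT macrophages (SD, n = 3 each), a ratio of 1.28 (log2 change 0.35, SE 0.0247, adjusted p = 9e-08). The log2 change was 0.23 after removal of the trend on length and GC content and 0.07 under quantile normalization, past the threshold in both.

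Fcgr4 (gene 246256, chr1:171018926-171029761, plus strand) encodes an activating receptor of intermediate affinity that binds IgG2a and IgG2b. Its values were 264, 262 and 256 FPKM in Gsdmd-/- samples, against 183, 195 and 195 FPKM in WT samples. The groups were separated by more than the spread within either. It averaged 260.6 ± 4.04 FPKM in Gsdmd-/- and 191 ± 7.05 FPKM in WT macrophages (SD, n = 3 each), 1.36-fold higher (log2 change 0.45, SE 0.0313, adjusted p = 9.21e-08). Among the IgG receptors Fcgr4 had the highest ratio on the deposited values. With the trend removed its log2 change was 0.14, below the 0.23 of Fcgr1.

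Fcgr3 (gene 14131, chr1:171051169-171065915, minus strand) encodes the low-affinity activating receptor and was the most abundant of the IgG receptors. It was at 851, 850 and 839 FPKM in Gsdmd-/- samples, against 673, 670 and 659 FPKM in WT samples. Every Gsdmd-/- sample was higher, and the lowest of them exceeded the highest WT sample by far more than either group's range. The means were 847 ± 6.20 FPKM in Gsdmd-/- and 667 ± 7.88 FPKM in WT macrophages (SD, n = 3 each), a ratio of 1.27 (log2 change 0.34, SE 0.0227, adjusted p = 5.96e-08). This call ended after removal of the trend, where the log2 change was 0.03 (adjusted p = 0.313), and under quantile normalization.

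Fcer1g (gene 14127, chr1:171229572-171234349, minus strand), the signalling chain shared by these receptors and by IgE and collagen receptors, was among the most abundant transcripts, at rank 18 of 17067 genes in Gsdmd-/- and rank 25 in WT macrophages by mean FPKM. Its values were 2874, 2947 and 2656 FPKM in Gsdmd-/- samples, against 1806, 1953 and 1844 FPKM in WT samples. The spread was wider than for the receptors, and the groups still did not overlap. It averaged 2826 ± 151.5 FPKM in Gsdmd-/- and 1868 ± 76.4 FPKM in WT macrophages (SD, n = 3 each), 1.51-fold higher (log2 change 0.60, SE 0.0399, adjusted p = 1.75e-07). After removal of the trend the call ended, at a log2 change of 0.04 (adjusted p = 0.372).

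Fcgr2b (gene 14130, chr1:170960558-170976071, minus strand), the inhibitory IgG receptor, was at 209, 208 and 203 FPKM in Gsdmd-/- samples, against 220, 225 and 214 FPKM in WT samples. The Gsdmd-/- samples were all lower, but the gap between the groups was smaller than the range of the WT samples. The means were 207 ± 2.78 FPKM in Gsdmd-/- and 220 ± 5.32 FPKM in WT macrophages (SD, n = 3 each), a ratio of 0.941 (log2 change -0.09, SE 0.0279, 95% interval -0.15 to -0.03, adjusted p = 0.0124). Without limma's trend and robust settings the adjusted p was 0.0674, so this call did not hold there.

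Fcgr2b and Fcgr3 share stretches of coding sequence, so their values are uncertain where reads could be given to either gene. Their coding sequences (GRCm38, GENCODE M21) hold an identical run of 129 bases, and in the most alike stretch of 600 bases they are 86.7% identical. Of the 50-base windows of the longest Fcgr3 transcript, 12.8% also occur in Fcgr2b, and of the 100-base windows 3.53%. Of the 50-base windows of Fcgr2b, 11.4% occur in some other gene. The longest transcripts of the other 5 members share no 50-base window with another gene. The stretch of 150 coding bases around the shared run is shown because it is where reads of these receptors, one higher and one lower in Gsdmd-/- macrophages, are hardest to tell apart. It runs across exons that lie within chr1:170966668-170968096 in Fcgr2b and within chr1:171054161-171057807 in Fcgr3, both on the minus strand, and capitals mark the 2 bases that differ.
Fcgr2b: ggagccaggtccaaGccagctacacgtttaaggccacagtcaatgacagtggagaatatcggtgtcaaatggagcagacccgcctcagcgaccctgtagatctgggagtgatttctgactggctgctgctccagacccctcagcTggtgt
Fcgr3: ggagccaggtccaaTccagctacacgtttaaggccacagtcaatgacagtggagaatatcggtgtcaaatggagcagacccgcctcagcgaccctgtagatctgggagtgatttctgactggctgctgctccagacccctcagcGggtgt

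Fcgrt (gene 14132, chr7:45092993-45103822, minus strand), the FcRn heavy chain, was the least abundant of the 7 genes. It was at 15.5, 17.7 and 16.9 FPKM in Gsdmd-/- samples, against 12.03, 12.8 and 12.7 FPKM in WT samples. The lowest Gsdmd-/- sample was above the highest WT sample, and the Gsdmd-/- samples spread more widely. The means were 16.7 ± 1.11 FPKM in Gsdmd-/- and 12.5 ± 0.409 FPKM in WT macrophages (SD, n = 3 each), a ratio of 1.34 (log2 change 0.39, SE 0.0544, adjusted p = 3.43e-05). After removal of the trend the call ended, at a log2 change of 0.02 (adjusted p = 0.767). At the estimated depth these levels stand for 434 to 648 fragments per sample. B2m, which FcRn needs for assembly, was at 4824, 5076 and 4794 FPKM in Gsdmd-/- samples, against 5000, 5199 and 5014 FPKM in WT samples. The B2m groups overlapped (log2 change -0.05, 95% interval -0.11 to 0.01, adjusted p = 0.101), although B2m fell by 0.30 with the trend removed, by 0.27 in TPM (FPKM rescaled so that every sample has the same sum) and by 0.36 under quantile normalization.

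Fcrls (gene 80891, chr3:87250736-87263765, minus strand) had the highest ratio of the 7 genes. Its values were 45.8, 43.6 and 44.9 FPKM in Gsdmd-/- samples, against 27.9, 27.3 and 28.0 FPKM in WT samples. The groups were far apart beside a spread of about 1 FPKM. It averaged 44.8 ± 1.13 FPKM in Gsdmd-/- and 27.7 ± 0.356 FPKM in WT macrophages (SD, n = 3 each), 1.62-fold higher (log2 change 0.67, SE 0.0362, adjusted p = 1.2e-08). Among the changes of all tested genes, from low to high, that of Fcer1g was at percentile 91.9 and that of Fcrls above it, while Fcgr4 was at 83.5, Fcgrt at 79.6, Fcgr1 at 76.6, Fcgr3 at 75.7 and Fcgr2b at 40.6.

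The order of levels per length was Fcer1g, Fcgr3, Fcgr1, Fcgr4, Fcgr2b, Fcrls and Fcgrt, high to low, in all 3 Gsdmd-/- samples. In all 3 WT samples Fcgr2b stood above Fcgr4, and the rest of the order was as in Gsdmd-/- samples. In neither group did the ranges of genes that follow each other in this order overlap.

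A ratio between genes of the same sample does not move where a library is scaled by a single factor, as in TPM, but it can move under quantile normalization or removal of the length and GC trend. The summed FPKM of Fcgr1, Fcgr3 and Fcgr4 was 7.52, 7.49 and 7.58 times that of Fcgr2b in Gsdmd-/- samples, against 5.47, 5.42 and 5.63 times in WT samples. The ratio was higher in every Gsdmd-/- sample, at 7.53 ± 0.0440 in Gsdmd-/- and 5.51 ± 0.108 in WT macrophages (SD, n = 3 each). Each activating receptor contributed, on FPKM as deposited. Fcgr1 over Fcgr2b was 2.17 in Gsdmd-/- and 1.598 in WT macrophages, Fcgr3 over Fcgr2b 4.10 and 3.04, and Fcgr4 over Fcgr2b 1.26 and 0.870.

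The activating sum was 1556 ± 13.6 FPKM in Gsdmd-/- and 1209 ± 9.45 FPKM in WT macrophages (SD, n = 3 each). How the shift divided between the activating receptors and Fcgr2b depended on the scaling: in TPM Fcgr2b fell by 0.31 on the log2 scale, while Fcgr3, Fcgr1 and Fcgr4 rose by 0.12, 0.13 and 0.23. As a share of the 4 IgG receptors, Fcgr2b held 11.7% in Gsdmd-/- and 15.4% in WT macrophages, while Fcgr3 held 48.0% and 46.7%, Fcgr1 25.5% and 24.6%, and Fcgr4 14.8% and 13.4%. On the deposited values the gamma chain was higher relative to its receptors as well: Fcer1g over the activating sum was 1.82 ± 0.0867 in Gsdmd-/- and 1.54 ± 0.0509 in WT macrophages. With the trend removed Fcer1g changed by 0.04 on the log2 scale, less than Fcgr1 (0.23) and Fcgr4 (0.14) but not Fcgr3 (0.03). With the median transcript length it changed by 0.31, less than Fcgr1 (0.39) and Fcgr4 (0.35) but more than Fcgr3 (0.21). The ratio to the sum was not computed in these fits. Fcgrt stood at 0.341% of B2m in Gsdmd-/- and 0.247% in WT macrophages, on the deposited values. With the trend removed the log2 changes were 0.02 for Fcgrt and -0.30 for B2m. With the median transcript length both were 0.03. No test was applied to these ratios, since the genes were chosen with results known.

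**Figure D2:**
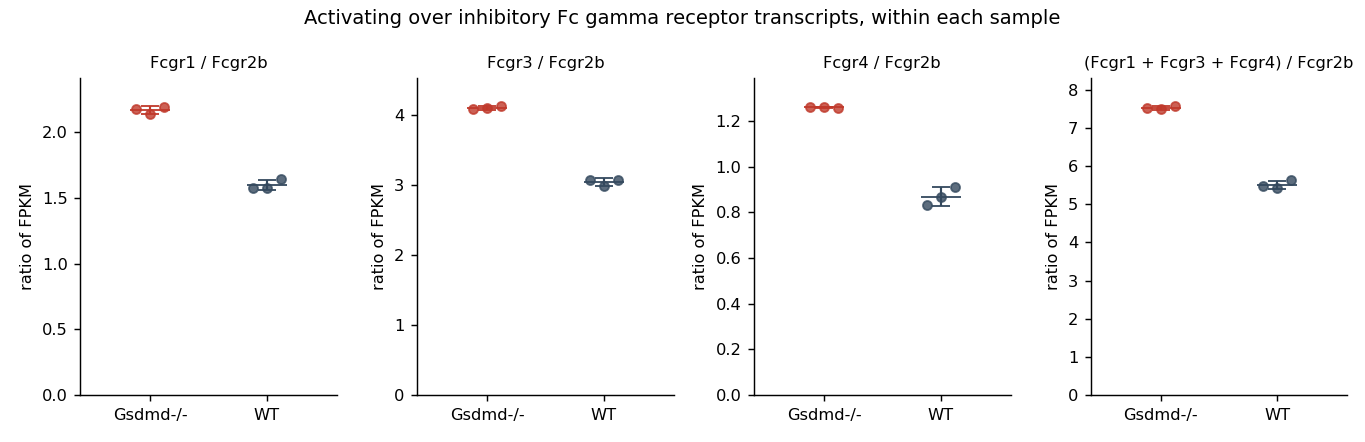
Ratio of the FPKM of each activating IgG receptor, and of their sum, to that of the inhibitory receptor Fcgr2b within each sample; points are samples (3 Gsdmd-/-, red, and 3 WT, blue), dashes group means and bars SD. Every Gsdmd-/- sample lies above every WT sample in all panels, at 7.49 to 7.58 against 5.42 to 5.63 for the sum, on FPKM without removal of the length and GC trend.

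The 7 genes differ in transcript length. The longest protein-coding transcript has 683 bases for Fcer1g, 1256 for Fcgr4, 1347 for Fcgr3, 1770 for Fcgrt, 2273 for Fcrls, 2589 for Fcgr1 and 3544 for Fcgr2b. The longest of these belongs to the gene that fell. Across the 9853 tested genes with a length, a smooth trend on length and GC content held 50.8% of the variance of the log2 change. With that trend removed, 4 of the 7 genes rose and 0 fell, beside 29% and 30.2% of all genes tested that way.

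Fcgr1, Fcgr4 and Fcrls rose in that fit too, by 0.23 (adjusted p = 3.32e-06), 0.14 (adjusted p = 0.00206) and 0.58 (adjusted p = 3.75e-08) on the log2 scale. Fcgr2b turned round and rose by 0.11 (adjusted p = 0.00388). Fcgr3, Fcer1g and Fcgrt lost their calls. The difference between the log2 changes of Fcgr3 and Fcgr2b was 0.43 before and -0.08 after removal of the trend, that between Fcgr4 and Fcgr2b was 0.54 and 0.03, and that between Fcgr1 and Fcgr2b was 0.44 and 0.12. Under quantile normalization these differences were 0.18, 0.52 and 0.31.

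The length assigned to a gene matters here. Fcgr1 and Fcgr4 have 1 annotated protein-coding transcript each, whereas those of Fcgr2b run from 1084 to 3544 bases, those of Fcgr3 from 547 to 1347 and those of Fcgrt from 127 to 1770. With the median transcript length in place of the longest, an alternative added after seeing the data, Fcgr2b fell by 0.16 (adjusted p = 0.000201), Fcgr1, Fcgr3, Fcgr4, Fcer1g and Fcrls rose by 0.21 to 0.58, and Fcgrt had a log2 change of 0.03 (adjusted p = 0.64). In that fit 34.6% of all genes rose and 30.9% fell. The direction of Fcgr2b, and with it the difference between Fcgr3 and Fcgr2b, therefore turned on the length used, and the length used by the authors is not given in the sources used here.

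**Figure D3:**
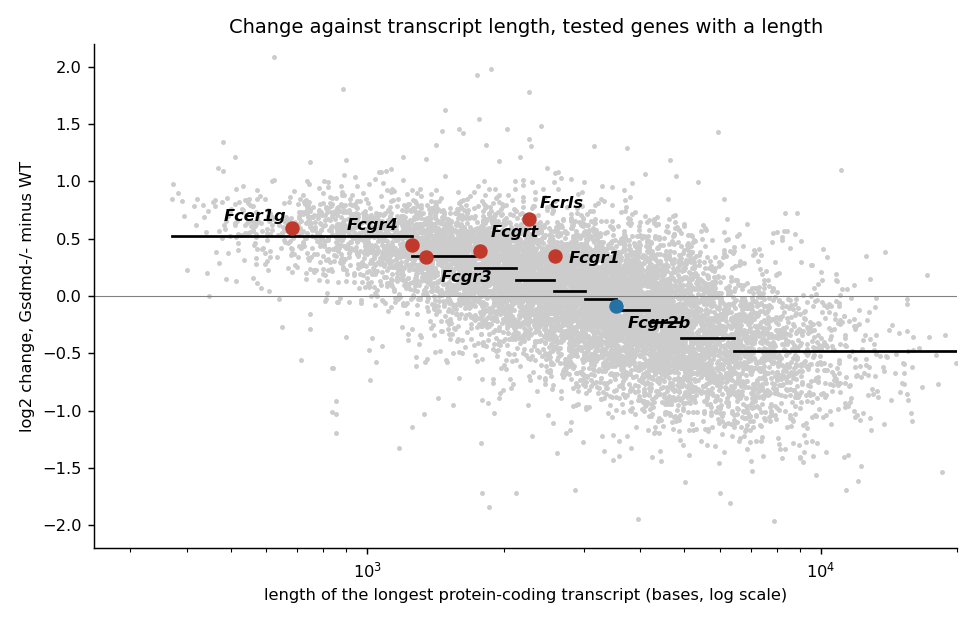
Log2 change (Gsdmd-/- minus WT, log2(FPKM + 1)) of each tested gene against the length of its longest protein-coding transcript on a log axis; grey points are genes, black lines the median of each of 10 length classes, and coloured points the Fc receptor genes (red rose, blue fell). Of the Fc receptor genes, Fcrls and Fcgr1 lie farthest above the line for their length; 12 genes lie outside the axes.

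The scaling of the libraries also entered. Over the tested genes, summed FPKM was 550300 to 564200 in Gsdmd-/- and 475200 to 484300 in WT samples. Rescaled to TPM, which sets these sums equal, 23.9% of all genes rose and 49.7% fell, and the median of all tested genes moved to -0.17. The 7 genes kept their directions and calls in TPM: Fcgr2b fell by 0.31, and the rises were 0.12 for Fcgr3, 0.13 for Fcgr1, 0.19 for Fcgrt, 0.23 for Fcgr4, 0.37 for Fcer1g and 0.46 for Fcrls. Quantile normalization left Fcgr1 at 0.07 (adjusted p = 0.0141) and Fcgr3 at -0.05 (adjusted p = 0.0818), so the call of Fcgr3 ended there, while Fcgr2b fell by 0.24; under it 41% of all genes rose and 36.2% fell.

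**Figure D4:**
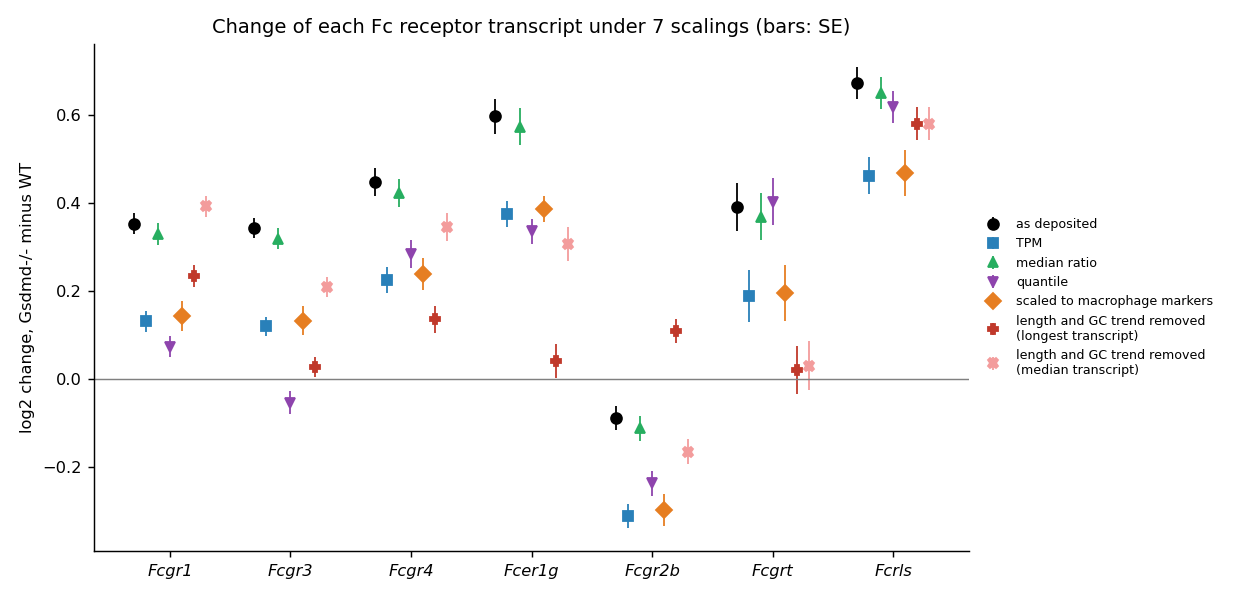
Log2 change (Gsdmd-/- minus WT) of each Fc receptor gene on the deposited values and under 6 other scalings; points are estimates from limma and bars SE. Fcrls lies between 0.46 and 0.67 and Fcgr4 between 0.14 and 0.45 throughout, while Fcgr2b runs from -0.31 to 0.11 and Fcgr3 from -0.05 to 0.34.

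Markers of other cells that carry Fc receptors were low. Neutrophils express Fcgr3, Fcgr4 and Fcer1g. Of 11 neutrophil markers listed, 10 had values, and 7 of these were under 1 FPKM in every sample. The summed neutrophil markers were 40.8 to 44.6 FPKM in Gsdmd-/- and 31.2 to 35.5 FPKM in WT samples, of which Csf3r, which monocytes and macrophages can also express, made up 37.5 and 29.6 FPKM on average. Ly6g and Mpo were at or near 0 FPKM in every sample. Cxcr2 averaged 3.28 FPKM in Gsdmd-/- and 2.39 FPKM in WT samples and rose (log2 change 0.33, adjusted p = 0.00541). S100a8 averaged 1.19 FPKM in Gsdmd-/- and 0.417 FPKM in WT samples, with groups that overlapped. NK cells express Fcgr3 and Fcer1g. Of 7 NK cell markers listed, 5 had values, with sums of 0.12 to 0.40 FPKM in Gsdmd-/- and 0.03 to 0.10 FPKM in WT samples.

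All 9 markers of B and plasma cells, which carry Fcgr2b, were under 1 FPKM, with sums of 0.50 to 0.90 FPKM in Gsdmd-/- and 0.27 to 0.47 FPKM in WT samples. For mast cells and basophils, 9 markers were listed and 8 had values, of which 7 were under 1 FPKM in every sample. The 8 markers summed to 2.22 to 2.37 FPKM in Gsdmd-/- and 3.61 to 3.87 FPKM in WT samples, most of it Kit. Fibroblast markers moved with the rise: 6 of 8 were tested and all 6 rose, beside 40.6% of all tested genes. The 8 markers summed to 82.2 to 84.1 FPKM in Gsdmd-/- and 30.2 to 31.8 FPKM in WT samples. The 2 that were not tested, Lum and Pdgfra, were under 1 FPKM in every sample. Endothelial markers, of cells that express Fcgrt, summed to 33.8 to 39.3 FPKM in Gsdmd-/- and 62.7 to 66.8 FPKM in WT samples. Most of it was Kdr, which averaged 26.3 FPKM in Gsdmd-/- and 56.4 FPKM in WT samples. Pecam1 (0.86 and 0.363 FPKM) and Emcn (0.727 and 0.203 FPKM) were higher in every Gsdmd-/- sample. In Cdh5, Vwf, Tek and Cldn5 the groups overlapped. Dendritic cell markers summed to 10.7 to 11.5 FPKM in Gsdmd-/- and 8.22 to 9.18 FPKM in WT samples. The part of the fibroblast, endothelial and dendritic cell markers in the Fc receptor results was not tested. Divided by the sum of the 13 macrophage markers, a scaling added after seeing the data, Fcgr2b fell by 0.30 and the other 6 rose by 0.13 to 0.47 on the log2 scale, beside 24.9% of all genes that rose and 49.6% that fell. That sum was 12680 to 12980 FPKM in Gsdmd-/- and 10780 to 11580 FPKM in WT samples. Most of it was Lyz2, C1qa, C1qb, C1qc and Cd68, which rose on the deposited values, and the markers that fell had little weight in it.

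Of the remaining Fc receptors of the mouse, 12 were listed and 3 passed the filter. In the lists that follow, the size of a rise or fall is a log2 change of log2(FPKM + 1), and counts are to be read beside all tested genes, of which 40.6% rose and 36.9% fell on the deposited values, 29% and 30.2% after removal of the trend, 34.6% and 30.9% with the median transcript, 23.9% and 49.7% in TPM, and 41% and 36.2% under quantile normalization. Trim21, a cytosolic antibody receptor, was at 83.3, 79.6 and 87.6 FPKM in Gsdmd-/- samples, against 105, 103 and 107 FPKM in WT samples. The groups did not overlap and Trim21 fell (log2 change -0.33, SE 0.0369, adjusted p = 5.87e-06), the opposite direction to Fcgr1, Fcgr3 and Fcgr4. Fcrlb, an intracellular Fc-receptor-like protein, averaged 2.94 FPKM in Gsdmd-/- and 2.65 FPKM in WT macrophages (adjusted p = 0.224), and Fcrl1, a B cell receptor, 2.44 and 2.37 FPKM (adjusted p = 0.804). The IgE receptor chains Fcer1a and Ms4a2, the IgE receptor Fcer2a, the IgA and IgM receptors Fcamr and Pigr, and Fcrla, Fcrl5 and Fcrl6 were under 1 FPKM in every sample, and Fcmr was not analysed here.

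Of 11 partner receptors and adaptors with ITAM signalling tested, 6 rose and 5 fell, with a median log2 change of 0.20. Tyrobp (DAP12), the other ITAM adaptor of macrophages, was at 1249, 1265 and 1163 FPKM in Gsdmd-/- samples, against 912, 982 and 932 FPKM in WT samples. It was higher in every Gsdmd-/- sample (log2 change 0.38, SE 0.0362, adjusted p = 1.83e-06), and Fcer1g was higher relative to it, at 2.31 times Tyrobp in Gsdmd-/- and 1.98 times in WT macrophages. With the length and GC trend removed, Tyrobp fell by 0.25 (adjusted p = 4.92e-05) and the list held 2 genes that rose and 7 that fell of 10.

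Receptors that signal through Fcer1g divided. Clec4e (Mincle), a receptor for glycolipids of mycobacteria, averaged 183 ± 4.16 FPKM in Gsdmd-/- and 237.6 ± 2.66 FPKM in WT macrophages (SD, n = 3 each; log2 change -0.37, adjusted p = 1.4e-07). Pira2, an activating paired immunoglobulin-like receptor, averaged 44.4 ± 3.23 and 71.8 ± 1.53 FPKM (log2 change -0.68, adjusted p = 8.29e-08), and its value is uncertain because the Pir genes are near-identical copies. Cd300c2 averaged 126 ± 1.083 FPKM in Gsdmd-/- and 103 ± 2.65 FPKM in WT macrophages and rose (log2 change 0.30, adjusted p = 1.95e-06). Clec4e and Pira2 also fell with the trend removed, whereas Cd300c2 turned to -0.09 (adjusted p = 0.0159).

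Among the kinases, adaptors and lipid enzymes downstream of activating Fc receptors, more genes fell than rose. Of 30 tested, 5 rose and 19 fell, beside 40.6% and 36.9% of all genes, with a median log2 change of -0.22, against 3 that rose and 18 that fell once the trend was removed, beside 29% and 30.2% of all genes. In TPM 2 rose and 26 fell of 31, beside 23.9% and 49.7%. Syk, the kinase that docks on the phosphorylated gamma chain, was at 49.0, 50.1 and 52.4 FPKM in Gsdmd-/- samples, against 67.4, 64.8 and 67.9 FPKM in WT samples. The groups did not overlap (log2 change -0.40, SE 0.0364, adjusted p = 9.79e-07). On the deposited values the activating sum was 30.8 ± 1.33 times Syk in Gsdmd-/- and 18.1 ± 0.594 times in WT macrophages (SD, n = 3 each). With the longest-transcript trend removed the log2 changes were 0.23 for Fcgr1, 0.03 for Fcgr3, 0.14 for Fcgr4 and -0.25 for Syk, and the ratio was not computed there.

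Pik3ap1 (BCAP), an adaptor for PI3-kinase, averaged 179.5 ± 3.11 FPKM in Gsdmd-/- and 299 ± 2.33 FPKM in WT macrophages (log2 change -0.73, adjusted p = 1.01e-09). Malt1, the paracaspase of the Card9 and Bcl10 complex, averaged 26.4 ± 0.918 FPKM in Gsdmd-/- and 54.2 ± 1.70 FPKM in WT macrophages (log2 change -1.01, adjusted p = 1.77e-09). The PI3-kinase subunit Pik3cb fell by 0.76 (adjusted p = 2.84e-08), and Prkcd, the kinase that acts on Card9, fell by 0.43 (adjusted p = 3.73e-08). Syk, Pik3ap1, Malt1, Pik3cb and Prkcd fell under every alternative run. Lyn, Fyn, Grb2 and Vav1 did not pass the test, at log2 changes of 0.01, -0.07, 0.01 and 0.04. These depended on the processing: in TPM they fell by 0.21, 0.29, 0.21 and 0.18, whereas Lyn rose by 0.19 (adjusted p = 8.13e-05) and Grb2 fell by 0.09 (adjusted p = 0.0152) with the longest-transcript trend removed.

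On the inhibitory side, Inpp5d, the phosphatase that Fcgr2b recruits, was at 32.7, 33.2 and 34.4 FPKM in Gsdmd-/- samples, against 35.4, 34.9 and 35.8 FPKM in WT samples. All Gsdmd-/- samples were lower, by a margin within the spread among them, and Inpp5d did not pass the test (log2 change -0.08, SE 0.0364, adjusted p = 0.0671). Its result depended on the processing. It fell by 0.30 in TPM (adjusted p = 1.94e-05) and by 0.12 under quantile normalization (adjusted p = 0.0106). With the longest-transcript trend removed its change was 0.055 (adjusted p = 0.212). Of 13 inhibitory phosphatases and adaptors, 4 rose and 7 fell, with a median of -0.15, beside 40.6% and 36.9% of all genes. With the median-transcript trend removed 0 rose and 6 fell, beside 34.6% and 30.9%, and in TPM 1 rose and 9 fell, beside 23.9% and 49.7%. Cbl, a ubiquitin ligase that acts on Syk and activated receptors, had the largest change of the list, with 3.09 ± 0.573 FPKM in Gsdmd-/- and 12.2 ± 0.875 FPKM in WT macrophages (log2 change -1.69, adjusted p = 2.41e-08). Pag1 fell by 0.66 and Ptpn11 (SHP-2) by 0.52, while Csk, the kinase that restrains Src kinases, rose by 0.30 (adjusted p = 5.75e-06). With the trend removed the change of Csk was 0.02 (adjusted p = 0.622) and that of Pag1 -0.14 (adjusted p = 0.0668), so neither call held there, nor did that of Csk in TPM (0.08, adjusted p = 0.0618).

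Of 12 other inhibitory receptors tested, most with ITIM motifs, 5 rose and 3 fell, with a median of 0.09, against 9 that rose and 0 that fell once the trend was removed. With the median transcript 6 rose and 2 fell, in TPM 5 and 6 of 13, and under quantile normalization 4 and 4. Lilrb4a was at 1825, 1822 and 1754 FPKM in Gsdmd-/- samples, against 1410, 1426 and 1417 FPKM in WT samples. It was higher in every Gsdmd-/- sample (log2 change 0.34, adjusted p = 7.02e-08), as were Milr1 (0.34, adjusted p = 1.49e-06), Cd300lf (0.36, adjusted p = 2.1e-06) and Pirb (0.23, adjusted p = 4.58e-06). Lilrb4a and Pirb have close copies, which makes their values uncertain, and under quantile normalization their changes were 0.00 and -0.02, and in TPM that of Pirb was 0.01 (adjusted p = 0.867). Sirpa, the receptor for CD47 that restrains phagocytosis, did not pass the test, at 282.5 FPKM in Gsdmd-/- and 293 FPKM in WT macrophages, but fell by 0.28 in TPM and by 0.29 under quantile normalization.

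Of 32 genes of the phagocytic cup and its actin, 13 rose and 16 fell, with a median of -0.09, beside 40.6% and 36.9% of all genes. With the longest-transcript trend removed 11 rose and 17 fell, beside 29% and 30.2%. In TPM 8 rose and 20 fell, and under quantile normalization 9 and 20. Cfl1 (cofilin), which severs actin filaments, averaged 2507 ± 64.5 FPKM in Gsdmd-/- and 1881 ± 31.8 FPKM in WT macrophages (log2 change 0.41). The adaptor Crk averaged 10.3 ± 0.133 FPKM in Gsdmd-/- and 20.5 ± 0.671 FPKM in WT macrophages (log2 change -0.93). Wasf2, which activates the Arp2/3 complex, fell by 0.76 and the scaffold Iqgap1 by 0.70. The adjusted p of these 4 ran from 6.1e-09 to 3.24e-08.

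Of 12 genes of FcRn assembly and endosomal sorting, 5 rose and 5 fell, with a median of -0.02, near the share over all genes. In TPM 3 rose and 7 fell, and under quantile normalization 3 and 8. Calr (calreticulin), a chaperone of class I folding, averaged 759 ± 8.11 FPKM in Gsdmd-/- and 605.6 ± 5.34 FPKM in WT macrophages (log2 change 0.33, adjusted p = 9.57e-08), and under quantile normalization its change was -0.14. Canx (calnexin) fell by 0.51 (adjusted p = 5.96e-08), a call that ended with the median-transcript trend removed (-0.04, adjusted p = 0.301). The early endosome genes Rab5a and Eea1 fell by 0.83 (adjusted p = 1.15e-08) and 0.95 (adjusted p = 7.11e-08), with Rab5a at 26.0 ± 1.34 FPKM in Gsdmd-/- and 46.9 ± 1.54 FPKM in WT macrophages.

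**Figure D5:**
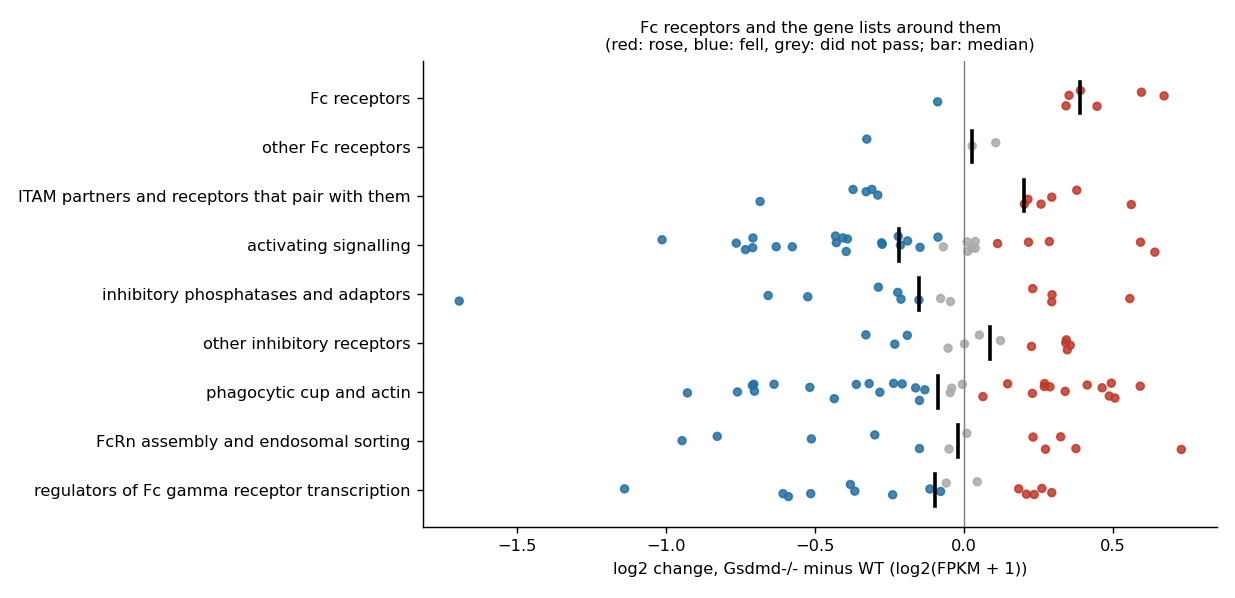
Log2 change (Gsdmd-/- minus WT) of each tested gene in the Fc receptor family and in 8 lists of related genes; red points rose, blue points fell, grey points did not pass the test, and black bars are medians. The Fc receptor family has a median of 0.39 and the activating signalling list a median of -0.22.

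Among regulators of IgG receptor transcription, 5 rose and 9 fell of 16, with a median of -0.10, beside 40.6% and 36.9% of all genes. With the trend removed 1 rose and 10 fell, beside 29% and 30.2%. With the median transcript 0 rose and 11 fell, beside 34.6% and 30.9%, and the same counts in TPM stood beside 23.9% and 49.7%. Interferon gamma, which signals through Jak1 and Jak2, is known to induce Fcgr1 and Fcgr4, and TGF-beta to favour Fcgr2b over activating receptors. Jak2 fell by 0.61 (adjusted p = 7.86e-08), Jak1 by 0.59 (adjusted p = 1.11e-07) and Tgfbr1 by 1.14 (adjusted p = 3.52e-08), the last with 2.90 ± 0.266 FPKM in Gsdmd-/-, against 7.58 ± 0.465 FPKM in WT macrophages. Spi1 (PU.1), named after its values were seen because its motif was searched, averaged 363 ± 16.9 FPKM in Gsdmd-/- and 296 ± 13.01 FPKM in WT macrophages (log2 change 0.30, adjusted p = 2.77e-05, and -0.07 with the trend removed, adjusted p = 0.126), and the call ended in TPM as well (adjusted p = 0.0504).

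The 250 bases before the annotated start of each member (RefSeq, GRCm38.p6) were searched on both strands for short motifs of these regulators. The 7 members matched 8 promoters, 2 of them of Fcgr3, and for Fcgr3 and Fcrls the start used lies inside the span of the gene. A GAS motif, a gamma interferon activation site (TTCNNNGAA), was found in Fcgr1 alone of the 7, at 109 to 101 bases before the start, and 7.18% of 27025 promoters hold it. The PU box GAGGAA was found in Fcgr1, Fcgr3, Fcgr4 and Fcrls, against 23.1% of all promoters, and the interferon-response core (GAAA, any 2 bases, GAAA) in Fcgr4, at 73 to 64 bases before the start, against 3.04%. None of these matches overlapped another. A match is only a run of letters, and binding was not measured.

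The promoters of Fcgr1 and Fcgr4, which rose under every alternative run, and of Fcgr2b, the gene that fell on the deposited values, are shown with GAS motif and PU box letters in capitals (a PU box on the other strand reads TTCCTC). They lie at chr3:96293970-96294219 (minus strand) for Fcgr1, chr1:171018676-171018925 (plus strand) for Fcgr4 and chr1:170976072-170976321 (minus strand) for Fcgr2b, whose window holds neither. The windows of Fcer1g and Fcgrt, which rose on the deposited values, hold neither as well. Whether motif and direction go together was not tested.
Fcgr1: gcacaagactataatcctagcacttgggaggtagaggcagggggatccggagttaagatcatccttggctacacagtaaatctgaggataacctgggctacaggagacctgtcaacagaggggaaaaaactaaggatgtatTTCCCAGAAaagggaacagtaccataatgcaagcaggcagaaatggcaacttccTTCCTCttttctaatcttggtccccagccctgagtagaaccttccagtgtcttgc
Fcgr4: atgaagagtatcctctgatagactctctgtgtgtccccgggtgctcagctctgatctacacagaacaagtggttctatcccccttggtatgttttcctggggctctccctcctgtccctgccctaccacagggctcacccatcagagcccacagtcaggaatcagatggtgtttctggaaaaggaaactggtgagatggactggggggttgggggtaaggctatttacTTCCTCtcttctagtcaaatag
Fcgr2b: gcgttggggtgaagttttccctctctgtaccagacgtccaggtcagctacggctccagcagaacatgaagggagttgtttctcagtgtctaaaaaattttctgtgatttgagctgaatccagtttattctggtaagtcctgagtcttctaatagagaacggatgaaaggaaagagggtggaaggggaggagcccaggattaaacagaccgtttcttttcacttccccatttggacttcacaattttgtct

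Fcgr2b, Fcgr4 and Fcgr3 lie next to each other on chromosome 1, with 42854 bases between Fcgr2b and Fcgr4 and 21407 between Fcgr4 and Fcgr3, and Fcer1g lies further along the same chromosome. Rcn3, a reticulocalbin 670 bases from Fcgrt, averaged 5.10 ± 0.521 FPKM in Gsdmd-/- and 1.24 ± 0.0551 FPKM in WT macrophages (log2 change 1.44, adjusted p = 9.29e-09). Cd5l, beside Fcrls, averaged 11.5 FPKM in both groups (adjusted p = 0.991). The annotation places an antisense gene, Gm38204, across 155 exon bases of Fcgr2b, and whether counting used strand is not given here, so reads of the pair cannot be told apart.

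For each member, the tested genes whose profile over the 6 samples lay closest were found by the root mean square difference of log2(FPKM + 1) about each gene's mean. Closest to Fcgr3 was Ctsl, a lysosomal protease, at 0.0073, and closest to Fcgr4 was Serpina3f at 0.0120. Psmd8, a proteasome subunit, was closest to Fcgr1 at 0.0123, Eif3g to Fcer1g at 0.0140 and Ube2n to Fcgr2b at 0.0164. Sltm was closest to Fcrls at 0.02 and Nr2f6 to Fcgrt at 0.0218. No member was among the 3 genes closest to another member.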

How the data were processed

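The deposited tables hold 1 value per gene and sample with no stated unit. They were read as FPKM made by the authors: sums differ between samples, and the smallest steps between low values depend on transcript length. Bowtie2 2.2.5 and GRCm38.p6 are named per the submitters' processing notes, and BGISEQ-500 sequencing per the labels' protocols. For the counting program, its annotation, gene lengths and strand setting, nothing is given in the sources used here. Of 17067 gene identifiers 16950 were found in RefSeq, through which 25 symbols written as dates were restored.

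Genes with at least 1 FPKM in at least 3 samples were tested with limma 3.58.1 (trend and robust settings; R 4.3.3) on log2(FPKM + 1), Gsdmd-/- minus WT, two-sided, with Benjamini-Hochberg adjustment over 10005 genes and a threshold of 0.05. This scale understates changes of low genes. An exact permutation test of 3 against 3 cannot go below p = 0.1 and was not used. The labels do not state separate mice, so p-values reflect only how far these samples differ, which may be technical. Within groups, pairs of samples differed by a chi-square of 1.6 to 2.35 per degree of freedom and were counted separately. Trends on length and GC (GENCODE M21) were fitted with mgcv 1.9.3 over 9853 genes.

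The members and the lists were chosen with earlier results of these data known. Genes named are the 7 members, Gsdmd, Syk, Inpp5d, Tyrobp, B2m and Trim21, in each list the 4 genes of smallest p and up to 4 that did not pass, flanking genes and the genes of closest profile; a few of these are not reported here. Markers of T cells, eosinophils and epithelium were also summed. Alternatives were pseudocounts of 0.1 and 0.01, filters, scalings, length and GC removal, a replicate block, limma without trend and robust settings, and leaving out each sample. Tables and figures were made with Python 3.11.15.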

Additional observations from a re-analysis of the deposited data

How the results depend on the processing

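Fcgr1, Fcgr4 and Fcrls kept their direction and stayed past the threshold under every alternative run. With the length and GC trend removed, with or without the replicate block, the log2 change was 0.110 for Fcgr2b, 0.028 for Fcgr3, 0.042 for Fcer1g and 0.021 for Fcgrt, and 0 members fell. With the median transcript it was 0.031 for Fcgrt, and under quantile normalization -0.053 for Fcgr3. Without limma's trend and robust settings Fcgr2b was at -0.088 and no longer past the threshold, so 0 members fell. The other alternatives moved no member across the threshold; the cause of these changes was not tested. Leaving out each sample gave 0.57 to 0.64 for Fcer1g, 0.34 to 0.36 for Fcgr1, -0.11 to -0.07 for Fcgr2b, 0.33 to 0.35 for Fcgr3, 0.42 to 0.46 for Fcgr4, 0.35 to 0.44 for Fcgrt and 0.66 to 0.69 for Fcrls, with 6 members that rose and 1 that fell each time, and a difference in the activating to inhibitory ratio of 1.98 to 2.08. Genes that rose numbered 4059 on the deposited values, 2575 in TPM and 2488 scaled to macrophage markers; over the 8 pathway lists they numbered 43, against 22 in TPM, 28 with the median-transcript trend removed and 20 scaled to macrophage markers. Counts of single lists moved by over 1.5 times in 41 cases. Of 697 values for the 35 named genes outside the family, 643 kept direction and side of the threshold, 14 lost their call, 15 gained one and 25 turned round. With the longest-transcript trend removed, with or without the block, these were Tyrobp at -0.254, Cd300c2 at -0.094, Inpp5d at 0.055, Fcrlb at -0.45 and Fcrl1 at -0.10. With the median transcript they were Csk at -0.055, Inpp5d at 0.061, B2m at 0.033, Fcrlb at -0.346 and Fcrl1 at -0.066. Quantile normalization turned Tyrobp to -0.054, Pirb to -0.024 and Calr to -0.137. Fcrlb and Fcrl1, which did not pass on the deposited values of all 6 samples, were at -0.066 and -0.151 in TPM and -0.048 and -0.121 scaled to macrophage markers, and Fcrl1 ran from -0.037 to 0.123 when each sample was left out. Replicate numbers did not pair the samples: deviations of same-numbered samples correlated at -0.08, 0.13 and 0.01. With the replicate block 7801 genes were called, against 7752 without it. Depth limits the precision of low genes such as Fcgrt, Fcrlb and Fcrl1. With 3 samples a group, single-sample departures could not be tested.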

Other observations

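Sums of the other marker lists were 9.61 to 10.52 FPKM in Gsdmd-/- and 5.63 to 6.49 FPKM in WT samples for T cells, 2.88 to 3.24 and 5.25 to 5.31 FPKM for eosinophils, and 1.80 to 2.03 and 2.97 to 3.44 FPKM for epithelium. Most of the T cell sum was Lck (7.19 FPKM in Gsdmd-/- and 4.30 FPKM in WT samples) and Cd4 (2.41 and 1.38 FPKM). Cd3e and Cd3d were at most 0.11 FPKM in every sample. Most of the eosinophil sum was Siglecf and Ccr3, and most of the epithelial sum Cdh1.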
